A study of Homo sapiens with 20 samples.

Results

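The genes described here are 40 genes of the ATF4 pathway and the unfolded protein response, chosen by name from the 58676 genes of the count table, in immortalized human pericytes. Pericytes are the contractile cells wrapped around small vessels, and the line, from Celther, was kept in DMEM with 10% FBS. For 4 hours the cultures received both recombinant human proteins (eNAMPT at 500 ng/mL and PDGF-BB at 20 ng/mL), PDGF-BB alone, eNAMPT alone, or neither (control). There were 5 libraries in each of the 4 groups, which the labels call biological replicates without saying what separated the cultures, so the p-values measure the spread between these libraries. All groups are the same immortalized line, so no comparison here speaks of other pericytes. NAMPT, an enzyme of NAD salvage, is called eNAMPT when cells release it, and PDGF-BB is the ligand of the pericyte receptor PDGFRB.

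ATF4 is a transcription factor whose mRNA is translated when eIF2 is phosphorylated, which happens under ER stress through the kinase PERK (EIF2AK3) and under amino acid shortage through other kinases. It drives genes of amino acid synthesis and folate metabolism and stress effectors such as DDIT3 (CHOP). The unfolded protein response has further arms: the sensor IRE1 (ERN1) splices XBP1 mRNA, and the sensor ATF6 is cut to release a transcription factor, and both arms raise ER chaperones and degradation factors. ATF4 translation, XBP1 splicing and ATF6 cleavage are not visible in counts of reads per gene, so the values below speak of mRNA levels only.

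Gene counts ran from 2894878 to 4011066 per library, and the 40 genes took 0.564% to 0.635% of them. Of 13 pericyte markers 12 averaged at least 1 CPM (counts scaled to 1e6 per library), DES being the exception, with a summed level of 482 to 593 CPM per library. Fibroblast markers were also present, 4 of 5 at 1 CPM or more and summing to 2872 to 4137 CPM. Most of that sum was COL1A1 (2776 to 4054 CPM), while PDGFRA averaged 92.5 CPM, DCN 5.88 CPM and LUM 4.56 CPM. The 7 endothelial markers summed to 3.00 to 9.45 CPM and 5 epithelial markers to 0 to 6.24 CPM. The 6 leukocyte markers summed to 16.8 to 27.6 CPM, mostly from CD14 (11.5 to 24.5 CPM), with LYZ at 0 in all libraries. The 5 neural or glial markers summed to 30.0 to 62.7 CPM, mostly from MBP and SYT1.

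The response reaches its genes through short DNA elements, and several promoters of the 40 genes carry them. Promoters were read from RefSeq (GRCh38.p14) from 250 bases before to 50 bases after each start, where 37 of the 40 genes matched and PSPH, PYCR1 and SHMT2 did not. The ER stress element ERSE, searched on both strands as CCAAT and CCACG with any 9 bases between them, binds ATF6 and XBP1 together with NF-Y. It was found in 0.0769% of 35116 promoter records and in 7 of the 37 genes: CALR, CANX, CRELD2, HSP90B1, HSPA5, PDIA6 and XBP1. The related ERSE-II, searched on both strands as ATTGG and CCACG with any 1 base between them, was found in 0.0541% of promoter records and in HERPUD1, HYOU1 and SDF2L1. The C/EBP-ATF response element (CARE), to which ATF4 binds as a dimer with C/EBP factors such as CEBPB or CHOP, was searched on both strands as TGATG and AA with any 1 base between them and 1 after them. It was found in 3.61% of promoter records and in ASNS, CHAC1, HERPUD1 and MTHFD1L. The percentages count promoter records, while a gene is named if any of its records holds the element, so the units differ. No gene held both ERSE and ERSE-II, and the ERSE-II and CARE of HERPUD1 did not overlap. The windows below show the elements in XBP1 and in chaperone and degradation genes, whose mRNA levels are given further on. Each is written along the gene's strand, with the element in capitals. It reads as the reverse complement of the searched letters in CALR, CRELD2, SDF2L1, HYOU1 and the CARE of HERPUD1.

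HSPA5, ERSE, chr9:125241366-125241434, minus strand: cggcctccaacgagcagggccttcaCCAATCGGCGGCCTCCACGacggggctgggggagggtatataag
XBP1, ERSE, chr22:28800578-28800646, minus strand: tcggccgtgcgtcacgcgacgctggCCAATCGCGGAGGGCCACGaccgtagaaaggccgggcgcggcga
CALR, ERSE, chr19:12938359-12938427, plus strand: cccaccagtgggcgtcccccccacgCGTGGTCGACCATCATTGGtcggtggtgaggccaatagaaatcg
CRELD2, ERSE, chr22:49918529-49918597, plus strand: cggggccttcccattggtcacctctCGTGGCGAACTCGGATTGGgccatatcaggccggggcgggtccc
SDF2L1, ERSE-II, chr22:21642089-21642149, plus strand: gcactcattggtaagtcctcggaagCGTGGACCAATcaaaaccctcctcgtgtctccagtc
HYOU1, ERSE-II, chr11:119057249-119057309, minus strand: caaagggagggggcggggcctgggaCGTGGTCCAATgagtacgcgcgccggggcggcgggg
HERPUD1, ERSE-II, chr16:56932000-56932060, plus strand: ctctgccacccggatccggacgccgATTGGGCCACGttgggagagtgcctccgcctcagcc
HERPUD1, CARE, chr16:56931940-56931998, plus strand: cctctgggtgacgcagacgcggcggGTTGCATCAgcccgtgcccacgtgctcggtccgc

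Among the 40 genes, some ER chaperone genes and ATF4 had the highest levels. Per kb of exon, CALR stood at 203 ± 21.5 CPM in control libraries (SD, n = 5), HSPA5 at 196 ± 13.1, HSP90B1 at 162 ± 11.9, CANX at 120.0 ± 3.84 and ATF4 at 115 ± 8.79. These were the 5 highest of the 40 genes. Other folding genes were lower, down to DNAJB9 at 3.99 ± 1.78 CPM per kb. CALR and HSPA5 differed by less than the SD of either, and CANX and ATF4 by less than the SD of ATF4. The lowest levels belonged to the IRE1 gene ERN1 at 0.637 ± 0.192 CPM per kb, VLDLR at 0.402 ± 0.0962 and the asparagine synthetase gene ASNS at 0.115 ± 0.129. ASNS had 35 counts in all 20 libraries and 0 to 1.55 CPM per library, and it was the 1 gene of the 40 that did not pass the filter on low counts, so 39 were tested. On the same strand 44.6% of the exon bases of ASNS also belong to AC079781.5, which had 0 counts in the same table, and the treatment of such shared bases in counting is not given in the sources used here.

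Of the 6 comparisons, PDGF-BB averaged over both eNAMPT states held the most calls among these genes (edgeR quasi-likelihood, Benjamini-Hochberg over 12111 genes, adjusted p under 0.05). This contrast sets 10 libraries with PDGF-BB against 10 without it, as the mean of PDGF-BB minus control and both agents minus eNAMPT. The replicate number was not a term in this fit. With it as a block, ATF4, STC2, PPP1R15A, DNAJB11, XBP1, TRIB3, HSPA5 and ERN1 passed too, all of them higher. More of all genes also passed with the block, as given at the end. Without the block CEBPB rose and VLDLR fell, 2 of 39 genes, where 3.96% of all tested genes passed (2.96% higher and 1.01% lower). DESeq2, also without it, called 3. At an unadjusted p under 0.05 there were 12 of the 39 genes, 30.8%, of which 11 were higher, where 15.1% of all tested genes reached it. The median log2 fold change was 0.06 over the 39 genes and -0.01 over all tested genes, and 27 of the 39 lay above 0, where 48.0% of all tested genes did. Scaled by spike-in counts, 21 of the 39 lay above 0, with a median of 0.00 against -0.07 over all genes. In a culture read in bulk, a change in RNA per cell and a change in the share of cells with the RNA cannot be told apart.

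CEBPB (C/EBP-beta, ENSG00000172216, chr20:50190734-50192689, plus strand) encodes a transcription factor that pairs with ATF4 and CHOP and that many other stimuli also induce. It had 199.7, 162, 169, 145 and 138 CPM in replicates 1 to 5 given both agents and 197, 171, 144, 140.3 and 137 CPM with PDGF-BB alone. The eNAMPT libraries had 129, 129.7, 129.7, 114 and 105 CPM and the control libraries 143, 125, 139, 111 and 95.9 CPM. All 10 libraries with PDGF-BB lay above the median of the 10 without it, 127 CPM, while the ranges, 137 to 199.7 CPM with PDGF-BB and 95.9 to 143 CPM without it, overlapped. The averaged PDGF-BB effect on the log2 scale was 0.39 (SE 0.08, adjusted p 0.000534 by edgeR), a fold of 1.31, and it passed in all 20 fits that left out 1 library. CEBPB shares 11.8% of its exon bases with CEBPB-AS1 on the other strand, which had 40 counts in all libraries together. Under spike-in scaling the change was 0.34 with an adjusted p of 0.378.

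VLDLR (ENSG00000147852, chr9:2621834-2660053, plus strand), the very low density lipoprotein receptor and an ATF4 target under ER stress, went the other way at very low counts. It had 2.09, 1.63, 2.6, 1.04 and 0.329 CPM with both agents and 2.95, 0, 0.810, 1.55 and 0.310 CPM with PDGF-BB. It had 5.32, 2.22, 3.00, 3.19 and 1.63 CPM with eNAMPT and 3.98, 4.84, 4.27, 2.94 and 2.73 CPM in control cells. All 10 PDGF-BB libraries lay below the median of the other 10, 3.09 CPM, and the ranges overlapped. The gene had 155 counts in 20 libraries, and its averaged PDGF-BB effect was -1.36 (SE 0.38, adjusted p 0.0302 by edgeR). The call ended, with adjusted p of 0.0503 to 0.0938, without control replicate 2 or 3, eNAMPT replicate 1 or 4, PDGF-BB replicate 2, 3 or 5, or combined-group replicate 4 or 5. It also ended with no filter on low counts (adjusted p 0.0525). VLDLR shares 7.9% of its exon bases with VLDLR-AS1 on the other strand, which had 45 counts in all libraries together. VLDLR-AS1 averaged 0.430 CPM with PDGF-BB and 0.920 CPM without it.

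**Figure D1:**
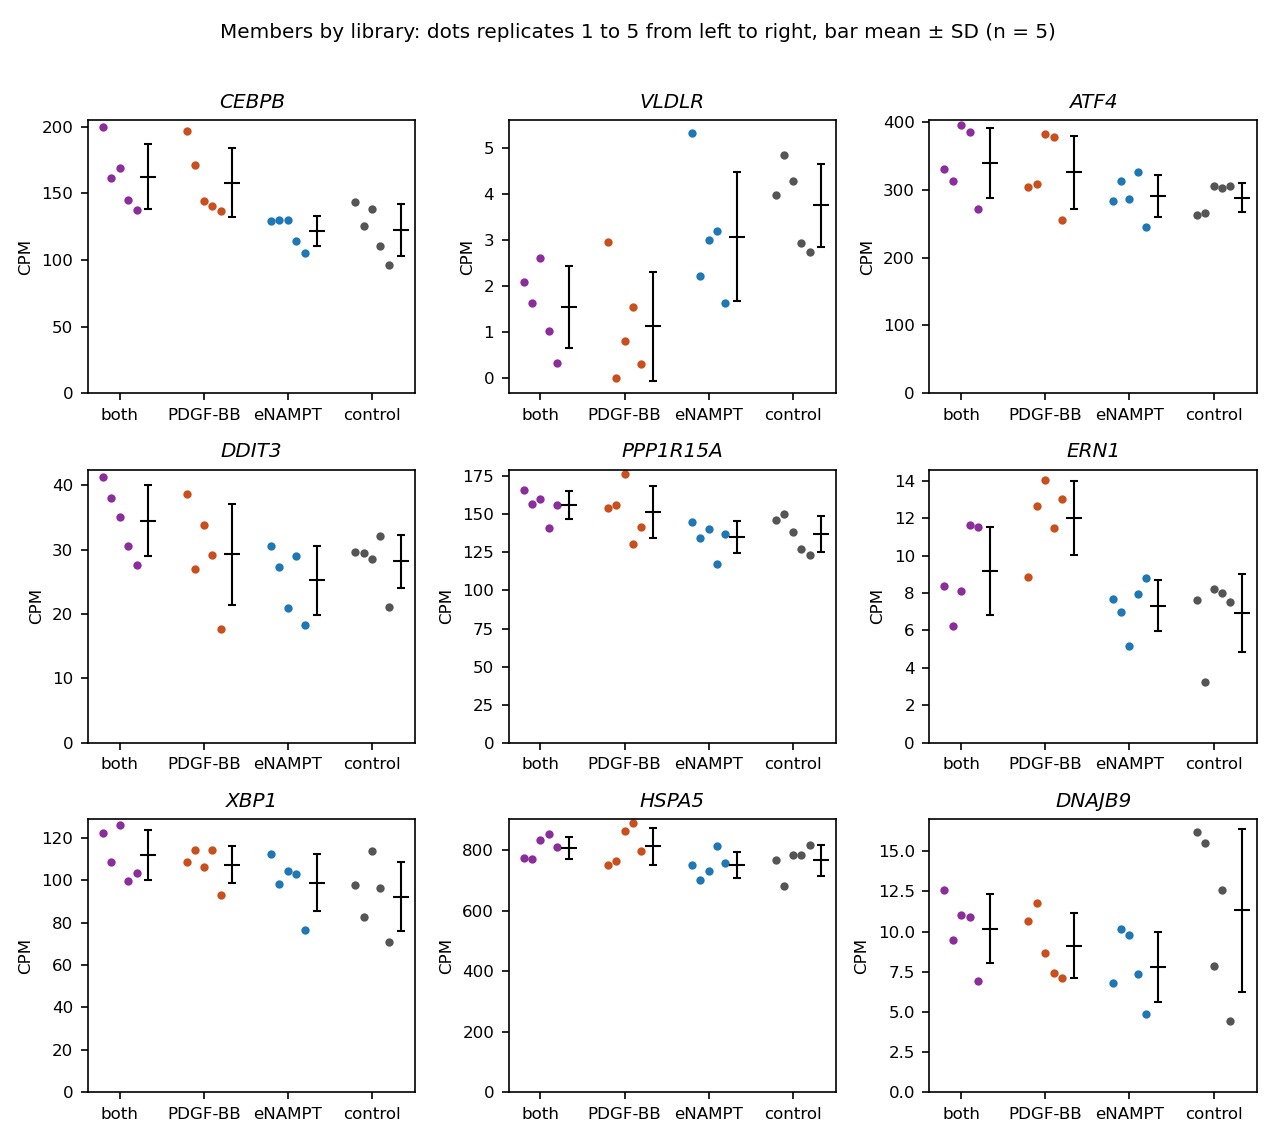
CPM after TMM scaling (y axis, from 0 except for VLDLR, where an SD bar reaches below 0) of 9 genes in the 20 libraries, grouped as both agents, PDGF-BB, eNAMPT and control, with a bar for the mean ± SD of 5 libraries. All 10 PDGF-BB libraries lie above the median of the other 10 for CEBPB and below it for VLDLR, and the other 7 genes overlap more.

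Among the ATF4 arm's transcription factors and stress effectors, 1 of 8 genes rose, none fell, and the median of the averaged PDGF-BB effect was 0.19. With 2.96% of all tested genes higher and 1.01% lower, even the largest role, of 13 genes, would hold fewer than 1 call, so a count of 0 or 1 in a role is no result about that role. ATF4 itself (ENSG00000128272, chr22:39519695-39522685, plus strand) had 331, 313, 395, 386 and 272 CPM with both agents and 304, 309, 382, 378 and 256 CPM with PDGF-BB. It had 283, 314, 287, 327 and 246 CPM with eNAMPT and 263, 266, 306, 302 and 306 CPM in control cells. Replicate 5 was the lowest library of each of the 3 treated groups, and the groups overlapped. The averaged PDGF-BB effect on ATF4 mRNA was 0.20 (SE 0.07, adjusted p 0.0975 by edgeR). In the fits that left out 1 library the adjusted p ran from 0.0291 to 0.223. Of these, it was under 0.05 only without PDGF-BB replicate 5 (0.0291) or combined-group replicate 5 (0.0342). It was 0.0163 with no filter on low counts and 0.000566 with the replicate number as a block.

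DDIT3 (CHOP, ENSG00000175197, chr12:57516588-57521737, minus strand) is the pro-apoptotic factor that ATF4 induces. It had 41.2, 37.9, 35.1, 30.5 and 27.6 CPM with both agents and 38.7, 27.0, 33.7, 29.2 and 17.7 CPM with PDGF-BB, against 30.5, 27.3, 21.0, 29 and 18.3 CPM with eNAMPT and 29.7, 29.4, 28.6, 32.1 and 21.2 CPM in control cells. The groups overlapped, and the averaged PDGF-BB effect was 0.25 (SE 0.12, adjusted p 0.297 by edgeR). Other genes on either strand share 39.6% of the exon bases of DDIT3, and the strand setting of the counting is not given in the sources used here. PPP1R15A (GADD34, ENSG00000087074, chr19:48872392-48876057, plus strand) directs the phosphatase that reverses eIF2 phosphorylation. It had 166, 157, 159.9, 141 and 156 CPM with both agents and 154, 156, 176, 130.4 and 141 CPM with PDGF-BB, against 145, 134, 141, 118 and 137 CPM with eNAMPT and 146, 150.2, 138, 127 and 124 CPM in control cells. Of the 10 PDGF-BB libraries 9 lay above the median of the other 10, and the effect was 0.18 (SE 0.06, adjusted p 0.0906 by edgeR). In the fits that left out 1 library the adjusted p ran from 0.0490, without PDGF-BB replicate 4, to 0.206. It was 0.0105 with the replicate number as a block (edgeR).

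The other 4 genes of the ATF4 arm did not pass. The pseudokinase gene TRIB3, a CHOP target, ranged from 12.9 to 34.8 CPM over the 10 PDGF-BB libraries and from 8.49 to 22.1 CPM over the other 10, with an averaged effect of 0.40 (SE 0.17, adjusted p 0.220 by edgeR). TRIB3 passed only with the replicate number as a block (adjusted p 0.0335 by edgeR). SESN2, a stress-induced inhibitor of mTORC1 signalling, had an effect of 0.13 (SE 0.10). CHAC1, which degrades glutathione, had -0.08 (SE 0.20), and the transcription factor gene ATF5 had -0.14 (SE 0.09).

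The enzymes of serine, folate, proline and asparagine synthesis held no call, 0 of the 8 tested genes, with 7 above 0 and a median of 0.09. MTHFD2, the mitochondrial folate enzyme, had 166, 178, 201, 186 and 189 CPM with both agents and 189, 181, 203, 191 and 199 CPM with PDGF-BB. It had 172, 175, 181, 191 and 172 CPM with eNAMPT and 167, 145, 180.2, 176 and 161 CPM in control cells. All 5 PDGF-BB libraries lay above all 5 control libraries, but the averaged effect of 0.13 (SE 0.05, adjusted p 0.186 by edgeR) did not pass. Other genes share 33.2% of the exon bases of MTHFD2, on the other strand.

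PHGDH, the first enzyme of serine synthesis, had 108, 94.8, 116, 126 and 117 CPM with both agents and 89.8, 99.4, 97.2, 109 and 112 CPM with PDGF-BB. It had 102, 94.8, 101, 109.7 and 105 CPM with eNAMPT and 104, 97.2, 89.0, 100.4 and 101 CPM in control cells, and the groups overlapped. Its averaged effect was 0.09 (SE 0.06, adjusted p 0.554 by edgeR). The other 6 tested enzymes, PSAT1 and PSPH of serine synthesis, the mitochondrial folate enzymes SHMT2 and MTHFD1L, and ALDH18A1 and PYCR1 of proline synthesis, had effects of -0.01 to 0.11. The secreted glycoprotein gene STC2, an ATF4 target, had 192, 200.2, 258, 259.9 and 232 CPM with both agents and 211, 188, 269.7, 221 and 244 CPM with PDGF-BB, against 182, 188, 233, 203 and 228 CPM with eNAMPT and 162, 165, 263, 204 and 192 CPM in control cells. Replicate 3 was the highest STC2 library in all groups except the one given both agents, the groups overlapped, and the effect was 0.17 (SE 0.08, adjusted p 0.239 by edgeR). With the replicate number as a block the adjusted p of STC2 was 0.00341 by edgeR.

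None of the 4 sensor genes and sensor-linked factors passed in the averaged PDGF-BB effect. ERN1 (IRE1, ENSG00000178607, chr17:64039142-64130819, minus strand), the kinase and endoribonuclease that splices XBP1, had the largest estimate of the 39 genes above 0. It had 8.38, 6.23, 8.13, 11.6 and 11.5 CPM with both agents and 8.86, 12.6, 14.0, 11.5 and 13.0 CPM with PDGF-BB, against 7.69, 6.98, 5.18, 7.97 and 8.81 CPM with eNAMPT and 7.65, 3.23, 8.21, 8.01 and 7.51 CPM in control cells. All 5 PDGF-BB libraries lay above all 5 control libraries, while those given both agents overlapped with control. The effect was 0.56 (SE 0.18, fold 1.47, adjusted p 0.0801 by edgeR), and it passed with DESeq2 (adjusted p 0.0452) and without combined-group replicate 2 (adjusted p 0.0464). It also passed with the replicate number as a block (adjusted p 0.0456 by edgeR). Over all fits that left out 1 library the edgeR adjusted p ran from 0.0464 to 0.165.

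XBP1 (ENSG00000100219, chr22:28794555-28800597, minus strand), the substrate of IRE1, carries an ERSE in its own promoter. It had 122, 108, 126, 99.4 and 103 CPM with both agents and 109, 114, 106, 114 and 92.8 CPM with PDGF-BB, against 112, 98.3, 104, 103 and 76.4 CPM with eNAMPT and 97.6, 82.7, 114, 96.2 and 71.0 CPM in control cells. Of the 10 PDGF-BB libraries 9 lay above the median of the other 10, the groups overlapped, and the effect was 0.19 (SE 0.07, adjusted p 0.159 by edgeR). The adjusted p of XBP1 was 0.0143 with the replicate number as a block (edgeR). The other sensors had effects of 0.04 (SE 0.08) for ATF6 and -0.08 (SE 0.15) for EIF2AK3.

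**Figure D2:**
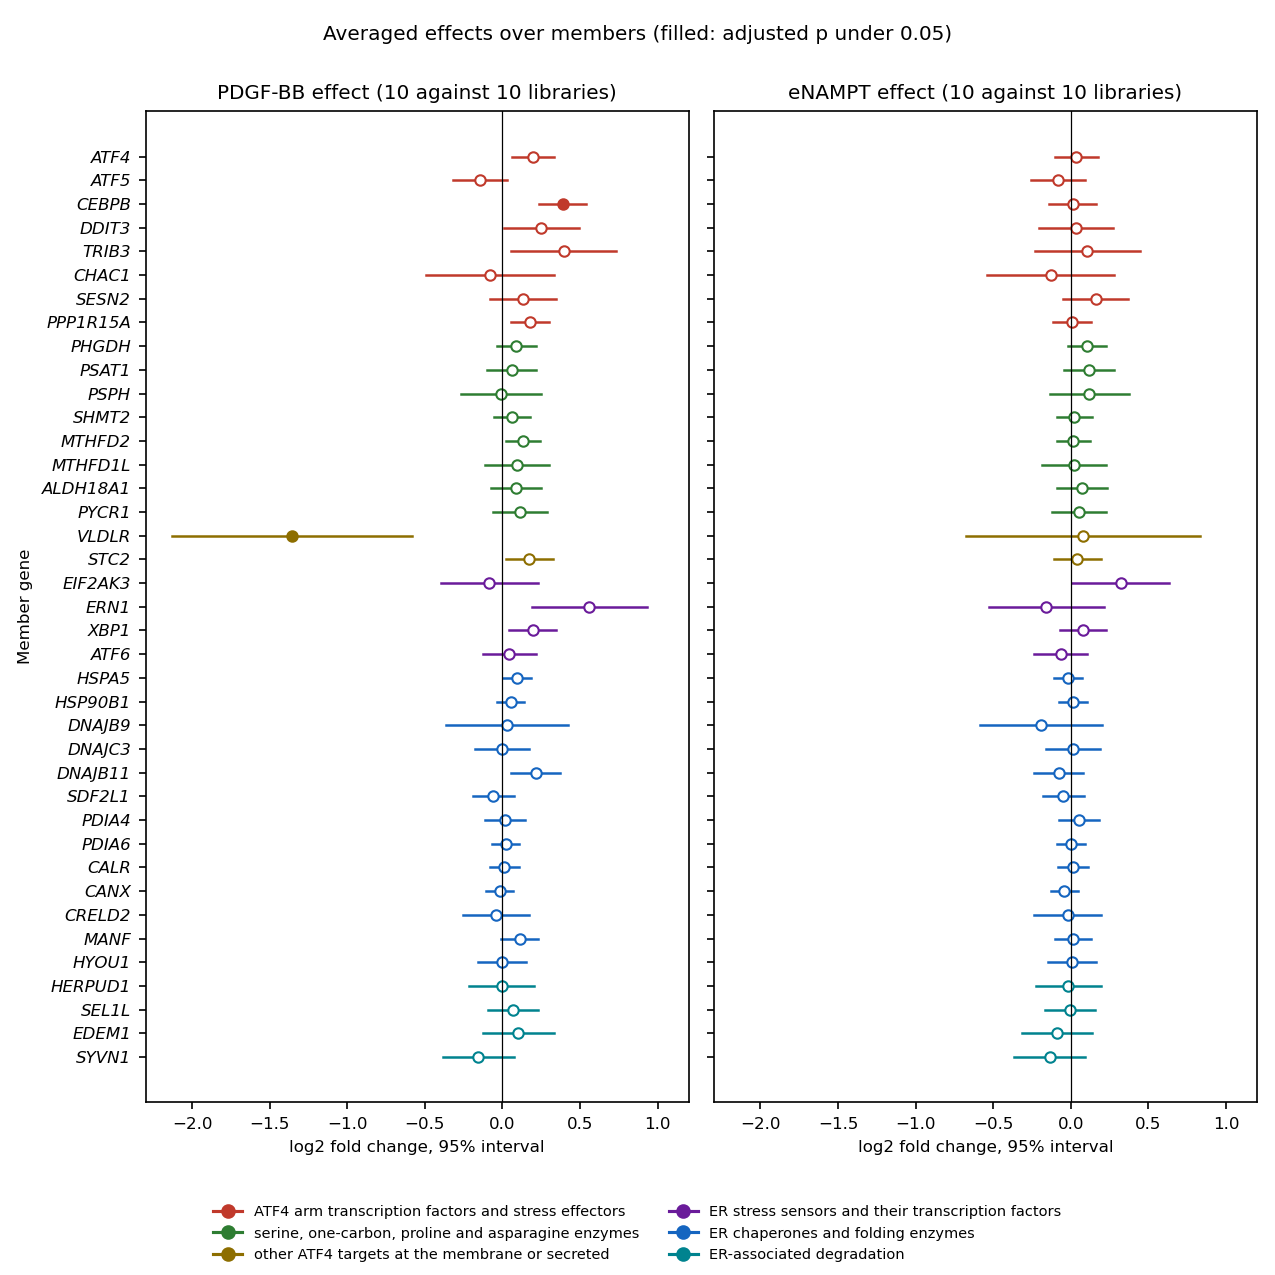
Log2 fold changes (x axis, with 95% intervals) of the 39 tested genes, ordered and coloured by role, for PDGF-BB averaged over both eNAMPT states (left) and eNAMPT averaged over both PDGF-BB states (right), each 10 against 10 libraries. CEBPB at 0.39 and VLDLR at -1.36 are the 2 filled points on the left, and the right panel has none.

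The ER chaperones and folding enzymes lay close to 0, with none of 13 passing, a median averaged PDGF-BB effect of 0.02 and a range of -0.06 to 0.21. HSPA5 (BiP, ENSG00000044574, chr9:125234853-125241330, minus strand) is the main ER chaperone and the usual marker of the response. It had 774, 771, 833, 855 and 812 CPM with both agents and 751, 766, 864, 892 and 797 CPM with PDGF-BB, against 752, 702, 732, 816 and 759 CPM with eNAMPT and 769, 681, 785, 785 and 816 CPM in control cells. The groups overlapped, and the effect was 0.10 (SE 0.05, adjusted p 0.299 by edgeR), with a 95% interval of 0.00 to 0.19. The adjusted p of HSPA5 was 0.0381 with the replicate number as a block (edgeR).

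DNAJB11, a co-chaperone of BiP, had 78.9, 85.6, 76.4, 86.7 and 106 CPM with both agents and 88.9, 99.6, 93.4, 102 and 116 CPM with PDGF-BB. It had 63.6, 73.2, 91.8, 82.9 and 95.7 CPM with eNAMPT and 61.5, 87.5, 74.2, 81.5 and 89.7 CPM in control cells. The groups overlapped, and its effect of 0.21 (SE 0.08, adjusted p 0.131 by edgeR) was the largest of the 13. Its adjusted p was 0.0137 with the replicate number as a block (edgeR). DNAJB9 (ERdj4), a co-chaperone that IRE1 and XBP1 induce, had 12.6, 9.48, 11.1, 10.9 and 6.90 CPM with both agents, 10.6, 11.8, 8.64, 7.45 and 7.13 CPM with PDGF-BB, 6.80, 10.1, 9.81, 7.33 and 4.9 CPM with eNAMPT and 16.2, 15.5, 7.88, 12.6 and 4.44 CPM in control cells. The control libraries spread over the whole range of the others, and the estimate of 0.03 (SE 0.20) was -0.030 under spike-in scaling.

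The intervals of the remaining 10 folding genes all took in 0. CALR and CANX, the lectin chaperones of the calnexin cycle, had averaged PDGF-BB effects of 0.01 (95% interval -0.08 to 0.11) and -0.02 (-0.10 to 0.07). HSP90B1 (GRP94) had 0.05 (-0.04 to 0.14) and the disulfide isomerase PDIA6 had 0.02 (-0.07 to 0.11). MANF, a secreted ER stress protein, had 0.11 (-0.01 to 0.23). The nucleotide exchange factor HYOU1, the BiP partners DNAJC3 and SDF2L1, the isomerase PDIA4 and the ER stress gene CRELD2 had effects of -0.06 to 0.02, and the interval of CRELD2, -0.25 to 0.17, was the widest of the 10.

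None of the 4 genes of ER-associated degradation passed. EDEM1, a lectin that hands misfolded glycoproteins to degradation, had 27.2, 37.4, 35.8, 18.9 and 31.9 CPM with both agents, 41.0, 36.8, 24.3, 29.5 and 31.3 CPM with PDGF-BB, 32.5, 23.1, 33.2, 28.1 and 25.1 CPM with eNAMPT and 30.0, 30.4, 30.2, 27.2 and 31.7 CPM in control cells. SYVN1, the ubiquitin ligase HRD1, had 16.8, 21.1, 20.2, 26.1 and 21.0 CPM with both agents, 19.2, 22.7, 21.6, 15.8 and 27.6 CPM with PDGF-BB, 18.9, 21.6, 23.2, 23.9 and 20.9 CPM with eNAMPT and 24.5, 22.9, 24.3, 26.2 and 31.7 CPM in control cells. For both genes the groups overlapped. The averaged PDGF-BB effects were 0.10 (SE 0.11) for EDEM1, -0.16 (SE 0.11) for SYVN1, 0.07 (SE 0.08) for its partner SEL1L and 0.00 (SE 0.10) for HERPUD1.

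Set by the promoter elements shown above, the 10 genes with ERSE or ERSE-II had a median averaged PDGF-BB effect of 0.01 and a range of -0.06 to 0.19, and none passed. The 3 tested genes with a CARE lay between -0.08 and 0.10, and none passed. The 24 genes with none of these elements in the window had a median of 0.10 and a range of -1.36 to 0.56 and included both CEBPB and VLDLR. These classes were described and not compared by a test, and the window does not cover distal elements.

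**Figure D3:**
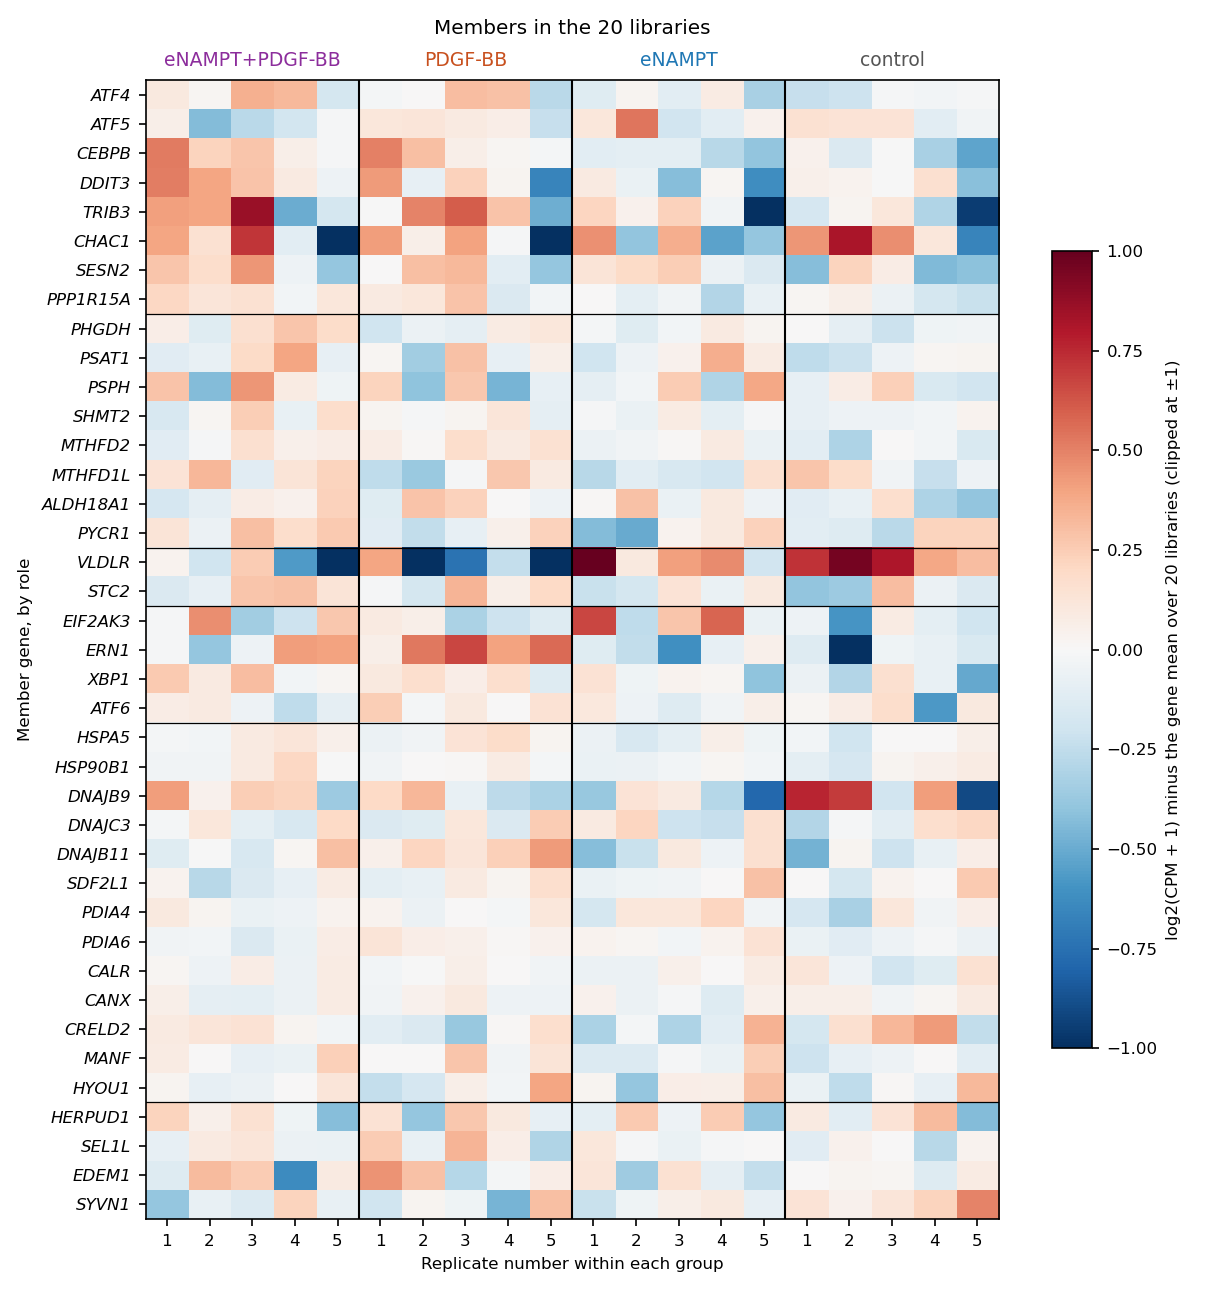
Log2(CPM + 1) of the 39 tested genes in the 20 libraries, each gene shown relative to its mean over all libraries and clipped at 1 either way, with red above and blue below the mean, libraries ordered as both agents, PDGF-BB, eNAMPT and control, and lines between roles. CEBPB is mostly red in the 10 PDGF-BB columns and VLDLR mostly blue, while the rows of HSPA5, CALR, CANX, HSP90B1 and PDIA6 are the palest and that of the chaperone gene DNAJB9 reaches -0.90 in a control library.

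In PDGF-BB alone against control none of the 39 genes passed (edgeR), where 1.21% of all tested genes did, and DESeq2 called none. Of all tested genes 1.05% were called higher and 0.165% lower. At an unadjusted p under 0.05 there were 7 of the 39, or 17.9%, where 9.64% of all tested genes reached it: CEBPB, DNAJB11, ERN1, MTHFD2, XBP1 and MANF were higher and VLDLR lower. CEBPB came closest, at 158 ± 25.7 CPM with PDGF-BB and 123 ± 19.6 CPM in control cells (SD, n = 5 each), and its log2 fold change was 0.36 (SE 0.11, adjusted p 0.0882 by edgeR). ERN1 had 12.0 ± 1.98 CPM with PDGF-BB and 6.92 ± 2.08 CPM in control cells, and its log2 fold change was 0.79 (SE 0.26, adjusted p 0.155 by edgeR). With no filter on low counts 1 gene passed, CEBPB (adjusted p 0.00671), and 1 gene passed without control replicate 1 or without PDGF-BB replicate 1. With the replicate number as a block, CEBPB (adjusted p 0.000144 by edgeR), DNAJB11 (0.00806), MTHFD2 (0.0378) and STC2 (0.0435) passed as higher. VLDLR passed as lower (0.0347). The block also raised the calls over all genes, as given at the end.

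In both agents against control 1 of the 39 genes rose, CEBPB, and none fell, where 1.98% of all tested genes passed (1.63% higher), and DESeq2 also called 1. CEBPB had 163 ± 24.3 CPM with both agents and 123 ± 19.6 CPM in control cells, and its log2 fold change was 0.40 (SE 0.11, adjusted p 0.0294 by edgeR). The call ended, with adjusted p of 0.0501 to 0.161, without control replicate 2, 4 or 5 or without combined-group replicate 1, 2 or 3. The adjusted p of CEBPB was 0.00106 with no filter on low counts and 1.07e-05 with the replicate number as a block (edgeR). The next smallest p-values were those of XBP1, at 0.27 (SE 0.11, adjusted p 0.25 by edgeR), and ATF4, at 0.23 (SE 0.10, adjusted p 0.296 by edgeR). With the block XBP1 (adjusted p 0.0276 by edgeR), ATF4 (0.0100) and STC2 (0.0188) also passed, all higher. The comparison shares its control libraries with PDGF-BB against control. The median over the 39 genes was 0.08, with 29 above 0, and under spike-in scaling it was -0.05, with 16 above 0, where the median of all genes moved to -0.14.

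eNAMPT gave no call among the 39 genes, alone or averaged over both PDGF-BB states. In eNAMPT alone against control 0.0743% of all tested genes passed, none of the 39 by edgeR or DESeq2, and 1, EIF2AK3, reached an unadjusted p under 0.05, where 3.61% of all tested genes did. EIF2AK3 encodes PERK, the ER stress kinase of eIF2, and was picked out here after its values were seen. It had 20.7, 10.5, 15.5, 19.5 and 12.1 CPM with eNAMPT against 12.2, 8.07, 13.5, 11.8 and 10.9 CPM in control cells. Its eNAMPT libraries 1, 3 and 4 were above all control libraries and the other 2 were not, and the log2 fold change was 0.47 (SE 0.22, p 0.0370, adjusted p 1.00 by edgeR). ATF4 had 291 ± 31.2 CPM with eNAMPT and 289 ± 22.1 CPM in control cells, a log2 fold change of 0.01 (95% interval -0.18 to 0.21), and HSPA5 had -0.03 (-0.16 to 0.10).

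Averaged over both PDGF-BB states, eNAMPT passed in none of the 39 genes by edgeR or DESeq2, where 0.157% of all tested genes passed. Again EIF2AK3 alone reached an unadjusted p under 0.05, which 3.63% of all tested genes did, with an effect of 0.32 (SE 0.15, adjusted p 1.00 by edgeR). The median over the 39 genes was 0.01, with 25 above 0, and under spike-in scaling -0.06 with 5 above 0, where that of all genes was -0.08. Intervals of the averaged eNAMPT effect were -0.10 to 0.17 for ATF4, -0.14 to 0.17 for CEBPB and -0.11 to 0.07 for HSPA5.

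The interaction sets the eNAMPT effect in the presence of PDGF-BB against that in its absence. It passed in none of the 39 genes by edgeR or DESeq2 and in 0% of all tested genes. At an unadjusted p under 0.05 there was 1 of the 39, PDIA6, where 3.35% of all tested genes reached it. PDIA6 had 372 ± 20.6 CPM with both agents, 399 ± 11.9 CPM with PDGF-BB, 394 ± 17.7 CPM with eNAMPT and 367 ± 9.37 CPM in control cells, and its interaction was -0.20 (SE 0.09, p 0.0288, adjusted p 0.999 by edgeR). For CEBPB it was 0.05 (95% interval -0.25 to 0.35) and for ERN1 -0.46 (-1.20 to 0.28). Under spike-in scaling the median of all genes in the interaction moved to -0.16.

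Beyond the 40 genes, 5 of 157 tested genes in 9 lists of neighbouring pathway genes passed in the averaged PDGF-BB effect, 3.18%, near the 3.96% of all tested genes. Of 32 tested further ATF4 and CHOP targets 2 rose and 1 fell, 9.38%, with a median of 0.07. SLC38A2, an amino acid transporter that ATF4 induces under amino acid shortage, fell to 199.84 ± 19.2 CPM over 10 PDGF-BB libraries, against 284 ± 15.7 CPM over the other 10. Its ranges, 176 to 226 CPM and 264 to 309 CPM, did not overlap, and the effect was -0.51 (SE 0.06, adjusted p 5.6e-09 by edgeR). The cytosolic tryptophanyl-tRNA synthetase gene WARS rose by 0.24 (SE 0.06, adjusted p 0.0144 by edgeR), and TNFRSF10B, the death receptor DR5 and a CHOP target, rose by 0.45 (SE 0.09, adjusted p 0.000329 by edgeR).

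CREBRF, a regulator that restrains the ER stress response, was the 1 call among 10 tested genes of sensor processing, at 23.2 ± 5.13 CPM over the PDGF-BB libraries and 34.9 ± 6.20 CPM over the others. It fell by 0.58 on the log2 scale (SE 0.12, adjusted p 0.00155 by edgeR). Of 9 mitochondrial chaperones and proteases HSPA9 (mortalin) rose by 0.18 (SE 0.05, adjusted p 0.0319 by edgeR). That call ended, with adjusted p of 0.0525 to 0.0818, without control replicate 1 or 2, eNAMPT replicate 1, 2 or 4, PDGF-BB replicate 3 or 5, or combined-group replicate 3 or 5.

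No gene passed among 13 genes of eIF2, its kinases and eIF2B, 14 further folate and proline enzymes, 24 other ER folding genes, 20 genes of ER translocation and glycan transfer, 22 other degradation genes and 13 cytosolic heat shock genes. The medians of these 6 lists ran from -0.0049 to 0.06. In both agents against control 4 of the 157 genes passed, 2.55%, near the 1.98% of all tested genes. There SLC38A2 and CREBRF also fell, by 0.48 (SE 0.08) and 0.66 (SE 0.17) on the log2 scale, and WARS and TNFRSF10B rose by 0.32 (SE 0.09) and 0.72 (SE 0.12). SLC38A2 was the only gene of these lists to pass in PDGF-BB alone against control, where it fell by 0.50 (SE 0.08). In both agents against control the WARS call ended, with adjusted p of 0.0729 to 0.105, without control replicate 2, 3 or 5 or combined-group replicate 1, 4 or 5. The CREBRF call ended there, with adjusted p of 0.0608 to 0.128, without control replicate 1, 2 or 3 or combined-group replicate 4 or 5.

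**Figure D4:**
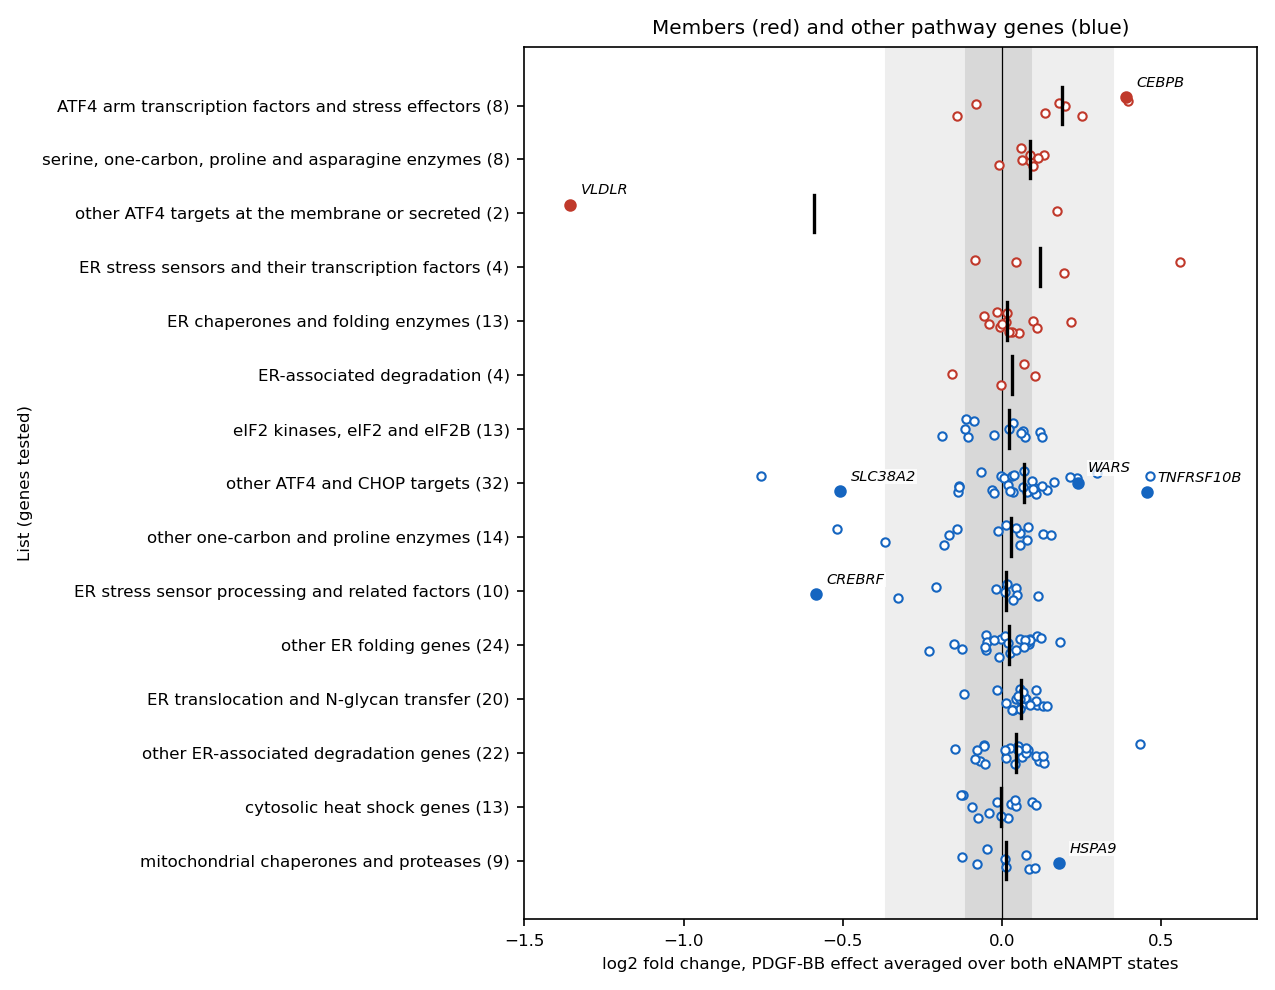
Log2 fold change of PDGF-BB averaged over both eNAMPT states (x axis) for the tested genes of the 6 roles (red) and of 9 other pathway lists (blue), filled where the adjusted p is under 0.05, with a bar at each list's median and grey bands for the middle 50% and 90% of all 12111 tested genes. The filled points are CEBPB, VLDLR, SLC38A2, WARS, TNFRSF10B, CREBRF and HSPA9, and the chaperone list sits near 0.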

How the data were processed

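RNA was sequenced from 20 pericyte libraries. Per the submitters' processing notes, STAR 2.6.1a, featureCounts 1.6.4, FastQC 0.11.7 and DESeq2 1.18.1 were used with GRCh38; strand and counting settings are not given in the sources used here. The authors deposited raw counts per gene, with no normalization. A second deposited table of counts, never lower than the first, served as an alternative. It held more counts for HSPA5, ATF4 and PSAT1, of which the first table had 79.7%, 90.1% and 89.7%. The 99 spike-in rows were left out of the gene tests. No libraries of a group agreed within sampling noise.

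With edgeR 4.0.16, low genes were removed by filterByExpr, libraries were scaled by TMM, and a quasi-likelihood model with a mean per group was fitted to all 20 libraries in R 4.3.3. P-values were two-sided and adjusted by Benjamini-Hochberg over 12111 genes within each of 6 comparisons. The standard error is the log2 fold change over the square root of F. Levels are CPM after TMM, as mean ± SD. Positions are those of GENCODE 29, which matched the files' starts for all 40 genes. Exon length and sharing are over all exons of a gene. The fit was tested on data simulated without a replicate effect. For the averaged PDGF-BB effect it recovered 18% of 50 genes changed by 0.25 on the log2 scale. It recovered 68% at 0.5, 86% at 1 and 98% at 1.5, with 6 false calls. Changes as small as most of those given here would thus often be missed.

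The genes, roles, pathway lists and comparisons were chosen with earlier results of these data known. Genes that passed, the 2 smallest p of each role in the averaged PDGF-BB effect, ATF4, DDIT3, HSPA5, XBP1 and DNAJB9 are given library by library. Of the other pathway lists, genes that passed are named. Alternatives were RLE size factors, DESeq2 1.42.0, no filter on low counts, the replicate number as a term, the second table, spike-in scaling and leaving out each library.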

Additional observations from a re-analysis of the deposited data

Results flagged for a closer look

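ERN1 had 3.23 CPM in control replicate 2, while the other 4 control libraries had 7.51 to 8.21 CPM. The gap was 0.859 of the group's range, above the limit of 0.71 for 5 libraries. It was 1 of 60 groups of 5 libraries examined (15 genes in 4 groups), and chance gives about 1 in 20. With the gene's low counts, the part of counting error in it was not tested.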

How the results depend on the processing

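RLE size factors and the second count table moved none of the counts of calls by more than 1.5 times. Among the 40 genes, no filter on low counts gave 1 call in PDGF-BB against control, and spike-in scaling gave 0 in both agents against control and 1 (VLDLR) in the averaged PDGF-BB effect. Leaving out 1 library gave 0 to 1, 0 to 1 and 1 to 3 calls in these 3 comparisons. The averaged PDGF-BB estimate of DNAJB9, 0.03, was -0.030 under spike-in scaling and between -0.068 and 0.11 without 1 library, below 0 in 5 of 20 fits. Over all genes, eNAMPT against control held 9 calls, 14 with DESeq2 and 14 with no filter. PDGF-BB against control held 147 (86.4% higher) and 40 (100% higher) under spike-in scaling. Both agents against control held 240 and, under spike-in scaling, 50. The averaged PDGF-BB effect held 480 and 129, and the averaged eNAMPT effect 19 and 12. The interaction held 0, 3 with no filter, and 0 to 1 without 1 library. The cause was not tested.

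The replicate numbers were not used to pair libraries in the main fit. Over 30 pairs of libraries of the same number, correlations of deviations from group means ran from 0.00138 to 0.176, 12 above 0.1. Of 20 libraries 12 correlated best with their own number, and 12.8% of all tested genes passed for the number. This comes from the data, as the labels do not say what the number marks. With the replicate number as a block, 5 of the 39 tested genes passed in PDGF-BB against control, where 377 of all 12111 tested genes did. In both agents against control 4 of the 39 passed, where 510 of 12111 did. In the averaged PDGF-BB effect 10 of the 39 passed, where 958 of 12111 did. Of these 10, CEBPB, ATF4, STC2, PPP1R15A, DNAJB11, XBP1, TRIB3, HSPA5 and ERN1 were higher and VLDLR was lower. With the block ATF4 had an adjusted p of 0.000566 in the averaged PDGF-BB effect and 0.0100 in both agents against control. Over all 12111 tested genes the block gave 21 calls with eNAMPT and 7 in the interaction.

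Depth limits low genes most: ERN1 had 10 to 52 counts per library and VLDLR 0 to 18.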

Other observations

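Several of the genes differed between libraries of the same group in a way that followed the replicate number, a pattern noticed in these data and then fitted to them. With replicate number added to the group means, 15 of the 39 genes, 38.5%, passed for the number, where 12.8% of all tested genes did (edgeR quasi-likelihood, adjusted p under 0.05). They were STC2, CHAC1, CEBPB, ATF4, HYOU1, TRIB3, SESN2, PYCR1, DNAJB11, XBP1, DDIT3, PSAT1, HSPA5, SDF2L1 and HERPUD1. What the number marks is not given in the labels.

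Which numbers were high and low varied from gene to gene. CEBPB had its lowest library in replicate 5 in 4 of 4 groups, with a mean log2 deviation of -0.24 there and 0.24 in replicate 1. STC2 had 0.27 in replicate 3 and -0.20 in replicate 2, and ATF4 had 0.17 in replicate 4 and -0.20 in replicate 5. CHAC1 had its lowest library in replicate 5 in 3 of 4 groups, and its mean log2 deviation there was -0.97, against 0.50 in replicate 3. TRIB3 had -0.68 and 0.46, DDIT3 -0.44 and 0.02, and SESN2 -0.34 and 0.28. Of the folding genes, HYOU1 had 0.28 in replicate 5 and -0.23 in replicate 2, SDF2L1 had 0.20 and -0.14, and HSPA5 had 0.02 and -0.10. DNAJB11 had 0.24 in replicate 5 and -0.24 in replicate 1. In replicate 5 the degradation gene HERPUD1 had -0.34 and XBP1 -0.26, while the proline enzyme gene PYCR1 had 0.24. DNAJB9, which did not pass for the number, had -0.62 in replicate 5 and its lowest library there in 4 of 4 groups. These genes were picked after their values were seen, and no difference between roles was tested.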
